A study of Mus musculus with 6 samples.

Results

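The comparison described here sets sorted IgM-positive bone marrow B cells of mice that lack zinc finger 1 of the transcription factor Ikaros against the same cells of wild-type mice. It took 4 of the 6 RNA-seq libraries in the study, chosen by the genotype in their labels: 2 of Ikaros ZnF1-/- mice and 2 of wild-type mice. All groups were on the C57BL/6 background and were 6 weeks old, and no treatment was given. The other 2 libraries, of Ikaros ZnF4-/- mice of the same strain and age, entered the statistical fit only to help estimate the spread. Both alleles of Ikaros carry the deletion in the mutants, and the labels name no Cre line, promoter or cell type that would limit it to B cells, so cells other than B cells may carry it too. The labels number the libraries of a genotype 1 and 2 without saying whether each came from its own animal, so the p-values measure the spread between these samples, which may be technical.

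Ikaros is the zinc finger protein made from Ikzf1. It is needed to form B cells and is often lost in B cell leukaemia. Its central N-terminal fingers contact DNA with a GGGAA core, and the outer fingers 1 and 4 modify which sites are bound. Ikaros can repress genes through the NuRD chromatin remodelling complex and can also activate them. IgM-positive cells of the marrow are immature B cells that have just assembled an antigen receptor, together with mature B cells that have returned from the blood. The comparison asks which RNAs in such cells depend on finger 1.

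Values are RPKM, read numbers scaled to transcript length and library size, with 1 value per gene and library. Of 22098 gene names, 10322 had a mean of at least 1 RPKM over all 6 libraries and were tested with limma on log2(RPKM + 0.5). The ZnF4 libraries count in that mean, so a gene could be tested through its ZnF4 values. A gene was called at a Benjamini-Hochberg adjusted p under 0.05. Fold changes on this scale are smaller than the ratio of the RPKM for weak genes. The number of reads per library is unknown, so no counting interval is given. Between 10025 and 10489 gene names reached 1 RPKM in each of the 6 libraries. The 8 genes of a B cell identity list, among them Cd79b, Pax5 and Ebf1, together gave 5687 and 5733 RPKM in wild type, against 5327 and 4692 RPKM in the ZnF1 mutant, while Cd3e of the T cell receptor lay between 0.2 and 0.7 RPKM in all 6.

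ZnF1 replicate 2 stood apart from the other libraries. Its 25 tested granulocyte and monocyte markers summed to 9009 RPKM, against 1700 in ZnF1 replicate 1 and 561 and 874 in wild type, and its 14 erythroid and platelet markers to 1100 RPKM, against 171, 256 and 276. None of the listed markers of either list was at 0 in all 6 libraries. In bulk RNA, fewer or more cells of a type cannot be told apart from less or more RNA per cell. It was also the one male library among these 4: Xist, which coats the inactive X chromosome, was listed at 0 and the Y-linked Ddx3y at 20.4 RPKM, while the other 3 libraries had Xist between 39.6 and 50.7 RPKM and Ddx3y at 0. Each count that rests on both ZnF1 libraries is therefore also given for replicate 1 alone where it matters.

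Ikzf1 itself was at 176.5 and 178.6 RPKM in wild type and at 201.1 and 168.4 RPKM in the ZnF1 mutant, so the groups overlapped (log2 fold change 0.05, SE 0.16, adjusted p = 0.940). One value per gene does not show whether the RNA lacked the part that encodes finger 1, so this is no check of the genotype.

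By limma, 28 of 10322 genes, 0.271% of those tested, were called in the ZnF1 mutant. Of these, 10 were higher (0.0969%) and 18 lower (0.174%). The smallest change among them was 1.10 (log2), and their adjusted p-values lay between 0.0113 and 0.0455. For called genes the 2 mutant libraries differed by at most 0.51 on the log2 scale (Col5a3), with a median of 0.19. The median over all tested genes was also 0.19, and a call needs a small spread, so this closeness is not particular to the called genes. The wild-type and mutant libraries did not overlap for any of the 28, and the smallest distance between the groups was 0.90. For 23 of them it was at least 1 on the log2 scale, against 0.736% of all tested genes (0.397% higher and 0.339% lower). The genes were called on these same libraries, so the lack of overlap and the distance are largely set by the call. Across all tested genes, 21.1% had both mutant libraries above both wild-type libraries and 20.3% had both below.

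The number of calls depended on which libraries were used. It was 7 when ZnF1 replicate 2 was left out and 512 when ZnF1 replicate 1 was; in both fits the lone ZnF1 library also sets the mutant mean and is assumed to vary like the other groups. By limma it was 0 without wild-type replicate 1 (910 genes at an unadjusted p under 0.05) or wild-type replicate 2 (609), and 0 without either ZnF4 library (1060 for replicate 1, 1059 for replicate 2), against 28 calls and 1232 genes at an unadjusted p under 0.05 with all libraries. The 7 genes called without ZnF1 replicate 2 were Il9r, Rhbdf1, H1f0, Rbpms, Cacna1h, Emid1 and Wls, of which all but Wls were among the 28. No gene was called by limma from only the 4 libraries of the comparison (1053 at an unadjusted p under 0.05), nor after a covariate for sex was added (863). Every one of the 28 had the same direction under each of the 17 alternative settings that tested it. Their groups do not overlap, so leaving out a library or changing the pseudocount, filter, trend or weights could not turn the sign. The kept direction is therefore no separate support for the calls.

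**Figure D1:**
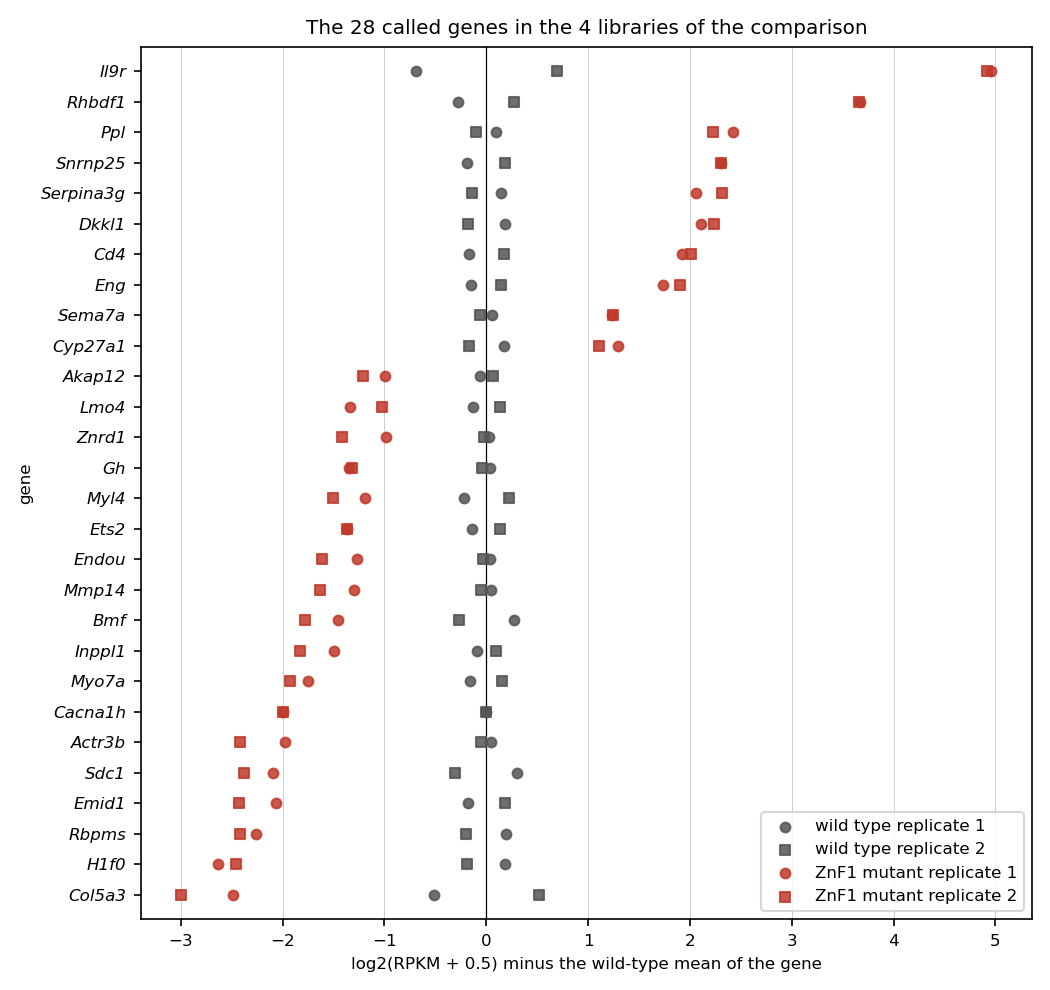
Each row is a called gene and each point a library; the x axis gives log2(RPKM + 0.5) minus the wild-type mean of that gene. Grey points are wild type, red points the ZnF1 mutant, circles replicate 1 and squares replicate 2. The ZnF1 points of a gene lie within 0.51 of each other, and no ZnF1 point lies among the wild-type points.

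The largest rise was that of Il9r, which encodes the alpha chain of the interleukin 9 receptor. Its RNA was at 3.3 and 9.4 RPKM in wild type, against 190.5 and 184.9 RPKM in the ZnF1 mutant. Both mutant libraries stood far above the wild-type libraries, and the means differed 29.6-fold (log2 fold change 4.94, SE 0.44, adjusted p = 0.0147).

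The next tested genes on the same side of chromosome 11, Snrnp25 and Rhbdf1, rose as well. Snrnp25, which encodes a protein of the minor spliceosome, was at 18.6 and 24.3 RPKM in wild type and at 107.2 and 107.4 RPKM in the mutant (5.0-fold, log2 fold change 2.31, adjusted p = 0.0155). Rhbdf1, which encodes an inactive rhomboid protein of the secretory pathway, was at 0.8 and 1.4 RPKM and at 19.5 and 19.4 RPKM (17.7-fold, log2 fold change 3.67, adjusted p = 0.0147). The tested genes on either side of this trio did not pass. Nsg2, an endosomal protein gene of neurons, was at 1.2 and 1.6 against 2.5 and 2.1 RPKM (adjusted p = 0.502), and Mpg, a DNA repair glycosylase gene, was at 8.8 and 11.7 against 16.1 and 17.3 RPKM (adjusted p = 0.312).

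**Figure D2:**
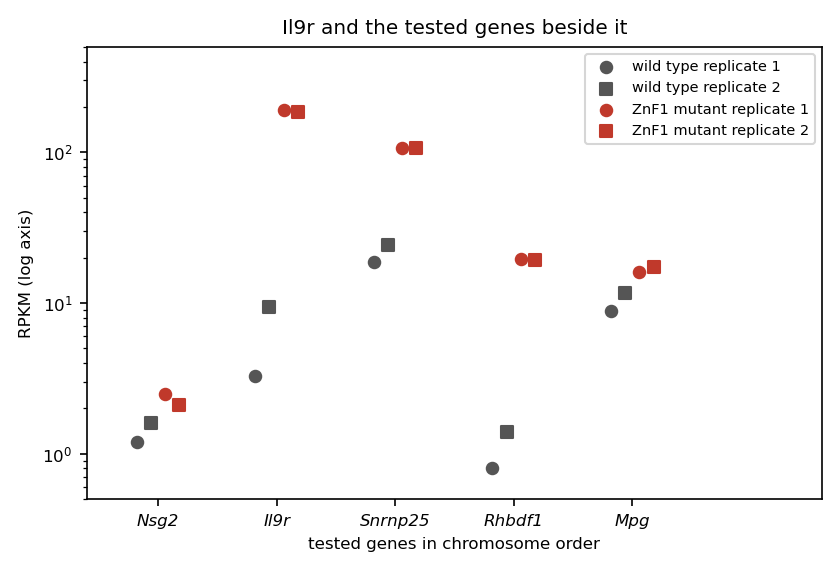
RPKM on a log axis for Il9r and the tested genes beside it, in their order along the chromosome; grey is wild type, red the ZnF1 mutant, circles replicate 1 and squares replicate 2. Il9r, Snrnp25 and Rhbdf1 stand well above wild type in both mutant libraries, and the flanking Nsg2 and Mpg lie much closer to it.

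The promoters of the genes that rose together at this locus are shown with those of 3 called genes that hold the motif TGGGAA. RefSeq promoters of assembly GRCm38.p6, from 250 bases before to 50 after the first listed start, were found for 19 of the 28 called genes and 8261 tested genes; none was found for Rhbdf1. Each was searched on both strands for TGGGAA, an Ikaros core with 1 flanking base, which reads TTCCCA on the other strand. Matches are in capitals and all else in lower case, 5′ to 3′ along the gene's strand.
Il9r (chr11:32200230-32200529, minus strand): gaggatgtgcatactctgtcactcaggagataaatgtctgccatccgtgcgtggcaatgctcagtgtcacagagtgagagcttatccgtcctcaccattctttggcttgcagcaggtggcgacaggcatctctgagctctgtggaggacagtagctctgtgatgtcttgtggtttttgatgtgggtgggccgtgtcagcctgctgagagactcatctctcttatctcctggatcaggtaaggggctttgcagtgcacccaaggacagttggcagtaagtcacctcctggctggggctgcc
Snrnp25 (chr11:32205165-32205464, plus strand): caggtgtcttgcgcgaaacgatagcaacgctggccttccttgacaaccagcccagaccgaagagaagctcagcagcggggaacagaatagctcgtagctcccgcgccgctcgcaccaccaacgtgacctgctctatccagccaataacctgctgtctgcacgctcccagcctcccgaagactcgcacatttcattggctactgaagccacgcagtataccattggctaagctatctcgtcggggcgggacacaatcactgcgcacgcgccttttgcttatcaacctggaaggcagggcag
Serpina3g (chr12:104235897-104236196, plus strand): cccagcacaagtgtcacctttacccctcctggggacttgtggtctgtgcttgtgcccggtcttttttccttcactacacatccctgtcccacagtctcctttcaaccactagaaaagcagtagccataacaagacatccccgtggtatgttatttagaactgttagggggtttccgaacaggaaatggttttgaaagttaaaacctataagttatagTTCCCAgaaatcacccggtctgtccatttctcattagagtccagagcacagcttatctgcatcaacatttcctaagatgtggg
Bmf (chr2:118544538-118544837, minus strand): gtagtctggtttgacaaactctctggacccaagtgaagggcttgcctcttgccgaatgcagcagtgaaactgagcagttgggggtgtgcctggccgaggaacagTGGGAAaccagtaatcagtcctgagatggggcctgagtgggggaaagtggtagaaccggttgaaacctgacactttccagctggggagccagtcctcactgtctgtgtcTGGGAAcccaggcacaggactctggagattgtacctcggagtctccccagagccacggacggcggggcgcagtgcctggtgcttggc
Emid1 (chr11:5152181-5152480, minus strand): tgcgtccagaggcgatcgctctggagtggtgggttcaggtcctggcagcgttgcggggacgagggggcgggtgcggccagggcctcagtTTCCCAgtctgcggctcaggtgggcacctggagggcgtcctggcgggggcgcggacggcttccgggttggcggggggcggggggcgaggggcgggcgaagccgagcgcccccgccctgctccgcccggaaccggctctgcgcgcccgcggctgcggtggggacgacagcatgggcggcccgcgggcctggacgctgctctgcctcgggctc
Neither Il9r nor Snrnp25 held TGGGAA in this window. Snrnp25 did hold the shorter core GGGAA, which was not searched for or counted over all genes. TGGGAA was present in 4 of 19 called genes (21.1%), namely Serpina3g, Bmf with 2 matches, Emid1 and Myo7a. It was present in 1882 of 8261 tested genes (22.8%), a similar share. A match is only a run of letters, and the window leaves out enhancers and further start sites.

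Of the other rises, those of Ppl and Cd4 started from under 1 RPKM in wild type. Ppl, the cytoskeletal linker periplakin, was at 0.3 and 0.2 RPKM in wild type and at 3.5 and 3.0 RPKM in the mutant (13.0-fold, log2 fold change 2.32, adjusted p = 0.0347). Cd4, the co-receptor of helper T cells, was at 0.6 and 0.9 against 4.2 and 4.5 RPKM (5.80-fold, adjusted p = 0.0347). Cd4 was the 1 of 9 tested T cell genes that passed, where 0.271% of all tested genes did. Lck, a T cell kinase gene also active in some B cells, was at 17.4 and 19.9 against 14.8 and 11.2 RPKM (adjusted p = 0.344).

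Dkkl1, a gene related to the Wnt inhibitors of the Dickkopf family, was at 2.2 and 1.6 RPKM in wild type and at 9.8 and 10.7 RPKM in the mutant (log2 fold change 2.17, SE 0.20, adjusted p = 0.0155). Eng, the TGF-beta co-receptor endoglin, was at 0.8 and 1.1 against 4.3 and 4.9 RPKM (4.84-fold, adjusted p = 0.0397). In both, the mutant libraries were close together and several times above wild type. Sema7a, a membrane-anchored semaphorin that binds integrins, was at 4.5 and 4.1 against 10.8 and 10.9 RPKM (2.52-fold, adjusted p = 0.0429). Its groups were narrow and clearly apart.

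Serpina3g, a protease inhibitor gene of activated lymphocytes, was at 9.7 and 7.9 RPKM in wild type and at 38.1 and 45.6 RPKM in the mutant (4.76-fold, adjusted p = 0.0318). It belongs to a cluster of similar genes, so its reads may be shared with its relatives. The neighbouring Serpina3f was at 1.7 and 1.1 against 2.8 and 3.0 RPKM (adjusted p = 0.240). Cyp27a1, the mitochondrial sterol 27-hydroxylase that makes oxysterols, was at 12.1 and 9.4 against 26.9 and 23.6 RPKM (2.35-fold, adjusted p = 0.0347). It was the 1 called member of 14 tested sterol genes, where 0.271% of all tested genes were called. Soat1, which esterifies cholesterol, was at 12.4 and 10.3 against 18.7 and 19.0 RPKM (adjusted p = 0.173) and was not called (picked with its values known).

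Among the 18 falls, those of nuclear proteins included the call with the smallest adjusted p. H1f0, the linker histone gene typical of resting and differentiated cells, was at 10.1 and 7.7 RPKM in wild type and at 1.0 and 1.2 RPKM in the mutant (8.09-fold lower, log2 fold change -2.55, SE 0.18, adjusted p = 0.0113). The other linker histone gene that was tested, Hist1h1c, was at 41.7 and 14.0 against 11.4 and 5.7 RPKM and did not pass (adjusted p = 0.276, picked with its values known). Its wild-type libraries were themselves far apart. Where poly(A) selection is used, it takes up RNA of replication-type histone genes poorly, and any part of that here was not tested. Ets2, an ETS transcription factor gene, fell from 9.6 and 11.7 RPKM to 3.8 in both mutant libraries (2.80-fold, adjusted p = 0.0347).

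Lmo4, a LIM-only cofactor of transcription complexes, fell from 50 and 60 to 21.4 and 26.6 RPKM (2.29-fold, adjusted p = 0.0393). Znrd1, a subunit of RNA polymerase I, fell from 45.7 and 44.2 to 22.5 and 16.5 RPKM (2.31-fold, adjusted p = 0.0455). The antisense transcript Znrd1as was at 1.7 and 1.1 against 0.5 and 0.6 RPKM (adjusted p = 0.372), and since the strand of the libraries is not stated, reads of both cannot be separated. Rbpms, an RNA-binding protein gene, fell from 5.0 and 3.7 to 0.5 and 0.4 RPKM (9.67-fold, log2 fold change -2.34, adjusted p = 0.0147). Of these nuclear and RNA-binding genes, Lmo4 and Znrd1 kept close to 20 RPKM in the mutant, while H1f0 and Rbpms were left at about 1 RPKM or less.

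Called genes that fell also included Col5a3, Emid1, Sdc1 and Mmp14, whose products lie at the cell surface or in the matrix; surface proteins were among the rises too. Col5a3, a chain of type V collagen, fell from 20.7 and 42.8 RPKM to 4.9 and 3.3 RPKM (7.74-fold, log2 fold change -2.74, SE 0.34, adjusted p = 0.0347); it had the largest fall on the log2(RPKM + 0.5) scale among called genes, while Rbpms, Sdc1 and H1f0 fell further by the ratio of means, and among called genes only Il9r had wild-type libraries further apart. Emid1, a secreted protein gene with collagen repeats, fell from 33.1 and 42.8 to 8.6 and 6.6 RPKM (4.99-fold, adjusted p = 0.0147). Sdc1, the heparan sulphate proteoglycan CD138 of plasma cells and early B cells, fell from 5.3 and 3.3 to 0.6 and 0.4 RPKM (8.60-fold, adjusted p = 0.0347). Mmp14, a membrane-bound protease gene that cuts matrix proteins, fell from 5.6 and 5.2 to 1.9 and 1.4 RPKM (3.27-fold, adjusted p = 0.0393). For each of these the mutant libraries were both below both wild-type libraries.

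Actr3b, Myo7a, Myl4 and Akap12 fell as well. Actr3b, a relative of the Arp3 subunit that nucleates branched actin, fell from 5.6 and 5.2 RPKM to 1.0 and 0.6 RPKM (6.75-fold, log2 fold change -2.20, adjusted p = 0.0347). Myo7a, an unconventional myosin gene, fell from 12.8 and 16 to 3.9 and 3.4 RPKM (3.95-fold, adjusted p = 0.0318). Myl4, a myosin light chain gene known from embryonic muscle and the atrium, fell from 54.1 and 73.5 to 27.4 and 21.9 RPKM (2.59-fold, adjusted p = 0.0447). Akap12, a scaffold that holds protein kinase A at the membrane, was the strongest expressed of the called genes in wild type, at 87.9 and 96.2 RPKM, and fell to 45.9 and 39.6 RPKM (2.15-fold, adjusted p = 0.0347).

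Falls in signalling and cell death genes included that of Inppl1, which encodes the inositol 5-phosphatase SHIP2. Inppl1 went from 9.8 and 11.2 RPKM to 3.4 and 2.6 RPKM (3.50-fold lower, log2 fold change -1.66, adjusted p = 0.0166). It was the 1 called gene among 33 tested genes of the B cell receptor list, where 0.271% of all tested genes were called. Inpp5d, the relative of Inppl1 that restrains B cell receptor signals, is on the same list and was not called (picked with its values known). Bmf, a BH3-only protein that triggers apoptosis, fell from 54.4 and 37.3 to 16.1 and 12.8 RPKM (3.17-fold, adjusted p = 0.0347). Cacna1h, a T-type calcium channel gene, had 3.9 RPKM in each wild-type library and 0.6 RPKM in each mutant library (6.50-fold lower, adjusted p = 0.0155). Values were deposited in steps of 0.1 RPKM, which can make weak libraries equal.

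The last falls were those of Endou and Gh. Endou, which encodes an endoribonuclease cutting at uridines, fell from 15.8 and 15.0 RPKM to 6.1 and 4.7 RPKM (2.85-fold, adjusted p = 0.0318). The tested gene beside it, Rapgef3, an exchange factor gene activated by cyclic AMP, was at 3.5 and 2.0 against 0.5 and 0.2 RPKM and did not pass (log2 fold change -1.92, adjusted p = 0.0895). Gh, the pituitary growth hormone gene, fell from 11 and 10.4 to 3.9 and 4.0 RPKM (2.71-fold, adjusted p = 0.0347). Gh is beside Cd79b, the very abundant B cell receptor gene, which was at 2227 and 2132 against 1971 and 1804 RPKM (log2 fold change -0.21, adjusted p = 0.827).

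The called genes lay on 15 chromosomes, with 6 on chromosome 11. In the RefSeq gene order of GRCm38.p6, which was used for neighbourhood only, they had 55 distinct tested neighbours. Of these, 3 were called themselves, all at the Il9r locus. Of the other 52, 12 (23.1%) had an unadjusted limma p under 0.05, where 11.9% of all tested genes did. The sign of the called gene was shared by 32 of the 52, where 49.5% of all tested genes had a positive log2 fold change. Whether neighbours move together was not tested. Beside Sema7a, which rose, Islr2 was at 3.4 and 4.6 against 1.7 and 1.3 RPKM (adjusted p = 0.118), and beside Ets2, which fell, the ETS factor gene Erg was at 0.6 and 2.4 against 3.2 and 4.7 RPKM (adjusted p = 0.311); all neighbours named were picked with their values known.

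To see how far the mutant libraries agreed, 2 differences were formed that share no library: ZnF1 replicate 1 minus wild-type replicate 1, and ZnF1 replicate 2 minus wild-type replicate 2. Across the 10322 tested genes they had the same sign in 60.7%, with r = 0.53 (Pearson) and rho = 0.43 (Spearman). With the wild-type libraries exchanged, the share was 51.8%, with r = 0.25 and rho = 0.18. Genes are not independent replicates, so these are descriptions. For the 28 called genes, whose groups do not overlap, the sign is the same in any such arrangement.

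Larger differences were mostly seen in replicate 2. Both ZnF1 libraries were at least 1 above the wild-type mean on the log2 scale for 94 genes and at least 1 below it for 56. Only replicate 2 was that far above for 382 genes and only replicate 1 for 29. Only replicate 2 was that far below for 100 genes and only replicate 1 for 28, and for 5 genes the libraries went past 1 in opposite directions. The ZnF1 libraries were over 1 apart for 460 genes, of which 395 were higher in replicate 2. Besides Y-linked genes, the genes most in excess there included Lyz1, a lysozyme gene listed at 0 in ZnF1 replicate 1 and at 10.9 RPKM in replicate 2, and Prg2, the eosinophil major basic protein gene, at 10.1 and 200.1 RPKM in ZnF1 replicates 1 and 2 and at 7.8 and 39.5 RPKM in wild type.

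**Figure D3:**
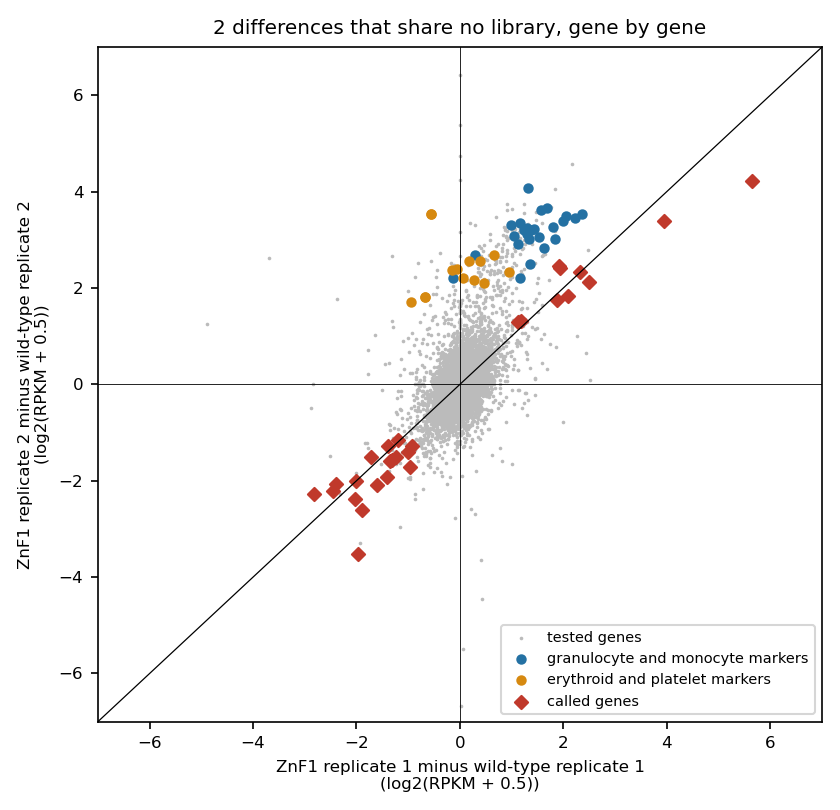
Each point is a tested gene; the axes are differences on the log2(RPKM + 0.5) scale between 1 ZnF1 and 1 wild-type library each, and the line marks equal values. Called genes (red) mostly lie near the line, with Col5a3 and Il9r further from it. Granulocyte (blue) and erythroid markers (orange) lie mostly above the line, which means a larger excess in ZnF1 replicate 2.

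The granulocyte and monocyte markers were high in both mutant libraries, to different degrees. Of 25 tested markers, 24 had both ZnF1 libraries above both wild-type libraries, as 21.1% of tested genes did, and none was called. Their median was 2.27, with 1.01 in ZnF1 replicate 1 and 3.59 in replicate 2. S100a9, an abundant calcium-binding protein gene of neutrophils, was at 179.4 and 247.1 RPKM in wild type and at 576.3 and 3135 RPKM in the mutant (adjusted p = 0.192). Prtn3, a protease gene of granule-forming precursors, was at 1.4 and 3.4 against 9.2 and 44.5 RPKM (adjusted p = 0.150). Replicate 1 alone was above both wild-type libraries for 24 of the 25, against 38.7% of tested genes.

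Erythroid and platelet markers were high in replicate 2 only. Their median over 14 genes was 2.58 there and -0.20 in replicate 1. Alas2, the first enzyme of heme synthesis in red cells, was at 18.3 and 25.9 RPKM in wild type and at 9.3 and 85.6 RPKM in ZnF1 replicates 1 and 2 (adjusted p = 0.917). Of 6 tested markers of NK and plasmacytoid dendritic cells, none passed. Both mutant libraries were above wild type for 2 of the 6 (33.3%, against 21.1% of tested genes). They were below for 1 (16.7%, against 20.3%). Siglech, a surface lectin gene of plasmacytoid dendritic cells, was at 1.1 and 4.0 against 5.3 and 7.2 RPKM (adjusted p = 0.303). Cd209d, a C-type lectin gene, was at 0.2 and 0.5 against 3.4 and 6.4 RPKM (log2 fold change 2.63, adjusted p = 0.053). Pacsin1, of the same list, went the other way, from 3.6 and 4.6 to 3.5 and 2.4 RPKM (log2 fold change -0.43, limma adjusted p = 0.630). Nkg7 was at 0.5 and 2.5 against 2.5 and 8.9 RPKM, so its groups met (limma adjusted p = 0.375).

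All 8 genes of B cell identity had a negative log2 fold change, where 49.5% of tested genes had a positive one; 5 of the 8 had both mutant libraries below both wild-type libraries, against 20.3% of tested genes, and none was called. Their median was -0.18, with -0.15 and -0.27 in ZnF1 replicates 1 and 2. Pax5, the factor that commits cells to the B lineage, was at 296.9 and 441.7 RPKM in wild type and at 235.0 and 194.1 RPKM in the mutant (log2 fold change -0.76, adjusted p = 0.240). Ebf1, which acts with Pax5, was at 93.9 and 108.3 against 73.4 and 59.7 RPKM (adjusted p = 0.188). The share of RNA from other cells moved along with these values, being largest in replicate 2, and its part in them was not tested.

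Of 31 tested B lineage transcription factors, none passed; 11 had both mutant libraries below wild type (35.5%, against 20.3% of tested genes) and 6 above (19.4%, against 21.1%). Replicate 1 alone was below both wild-type libraries for 13, where 28.6% of tested genes were. Myb, a factor of progenitors, was at 51.3 and 73.9 against 30.5 and 39.2 RPKM (adjusted p = 0.242), and Bach2, a repressor of plasma cell genes, at 68.9 and 71.4 against 51.0 and 42.7 RPKM (adjusted p = 0.216). Id2, an inhibitor of E proteins, was at 4.1 and 2.8 against 6.4 and 7.8 RPKM (adjusted p = 0.173). Ikzf3, the Ikaros relative Aiolos, was at 287.9 and 307.9 against 251.1 and 226.3 RPKM (adjusted p = 0.501). Myb, Bach2 and Ikzf3 were picked with their values known.

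Markers of B cell maturation went in both directions, and none of the 15 tested passed. Cd93, a surface receptor of immature B cells, was at 41.5 and 42.4 RPKM in wild type and at 20.7 and 22.6 RPKM in the mutant (log2 fold change -0.94, SE 0.19, adjusted p = 0.124). Cd24a, a surface glycoprotein that is densest on immature cells, was at 127.2 and 146.7 against 70.4 and 77.6 RPKM (-0.88, SE 0.16, adjusted p = 0.0977). For both, the mutant libraries were close to each other and near the middle between zero and the wild-type level. Fcer2a, which encodes CD23 of follicular B cells, was at 252.5 and 229.0 against 426.1 and 442.6 RPKM (0.85, adjusted p = 0.311), and Cr2, the complement receptor CD21 of mature B cells, at 24.7 and 23.1 against 44.1 and 42.1 RPKM (0.84, adjusted p = 0.163). Fcer2a and Cr2 were picked with their values known. The list as a whole had 3 members with both mutant libraries above wild type (20%, against 21.1% of tested genes) and 6 below (40.0%, against 20.3%), with a median of -0.08.

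Early B cell genes also went both ways. Of 14 tested, none passed, 5 had both mutant libraries above (35.7%, against 21.1% of tested genes) and 6 below wild type (42.9%, against 20.3%), and the median of 0.15 was -0.01 without wild-type replicate 1. Bst1, a surface enzyme of marrow B cell precursors, was at 15.9 and 16.1 against 5.9 and 8.8 RPKM (log2 fold change -1.10, adjusted p = 0.0926), and Sox4, a transcription factor needed by precursors, at 16.1 and 17.4 against 11.3 and 9.9 RPKM (adjusted p = 0.122). Igll1, a part of the surrogate light chain, was at 5.7 and 13.7 against 18.5 and 28.6 RPKM (adjusted p = 0.227), and Rag1, a recombinase gene, at 14.5 and 17.6 against 12.3 and 9.2 RPKM (adjusted p = 0.516); both were picked with their values known. The wild-type libraries differed for Igll1 nearly as much as the groups did.

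**Figure D4:**
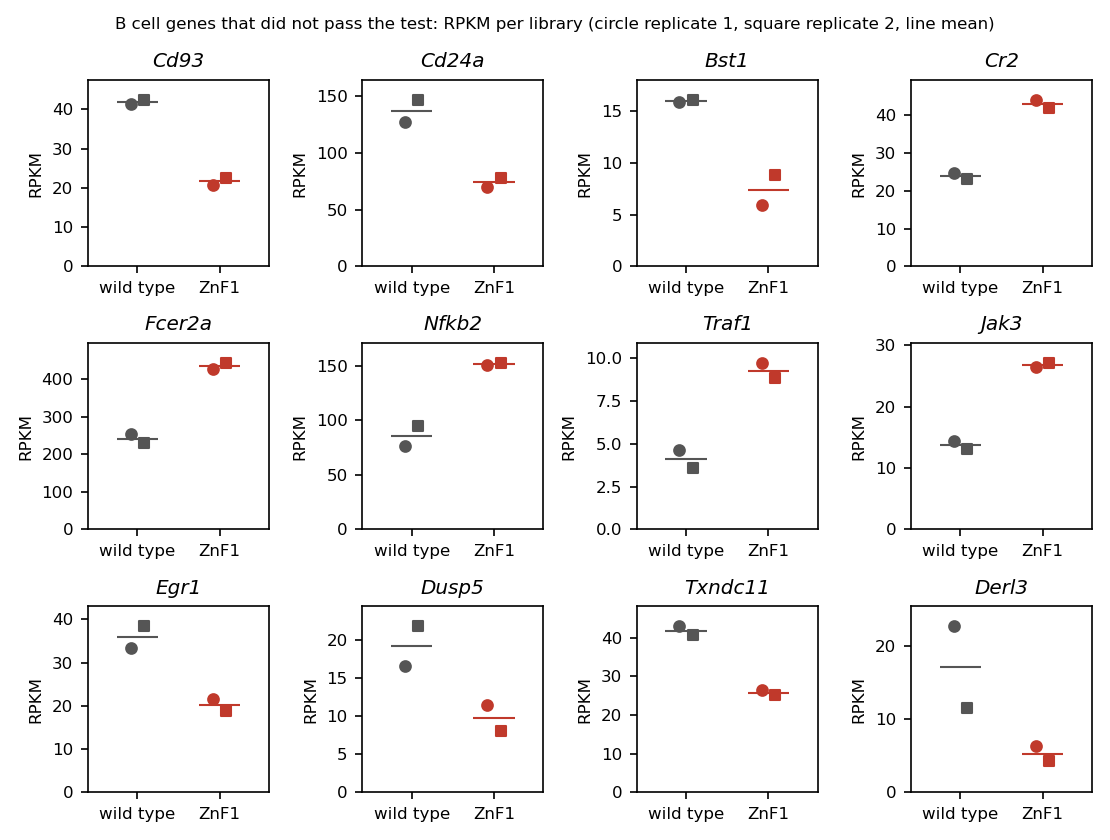
RPKM of 12 B cell genes that did not pass the test, picked with their values known; each panel starts at 0, grey is wild type, red the ZnF1 mutant, circles replicate 1, squares replicate 2, lines the means. In each panel both mutant libraries lie on the same side of both wild-type libraries, as 41.5% of all tested genes do.

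In the cytokine receptor and Jak-Stat list, 2 of 34 tested genes were called higher (Il9r and Eng), where 0.0969% of all tested genes were. None was called lower, where 0.174% of tested genes were. This list, like the others, was chosen with earlier results of these data known. Both mutant libraries were above wild type for 11 (32.4%, against 21.1% of tested genes) and below for 7 (20.6%, against 20.3%). The interleukin 9 receptor works with the common gamma chain, and Jak kinases bound to the pair activate Stat factors. Il2rg, which encodes that chain, was at 229.3 and 207.9 RPKM in wild type and at 330.9 and 309.6 RPKM in the mutant (log2 fold change 0.55, adjusted p = 0.280). Jak3, the kinase bound to it, was at 14.4 and 13.1 against 26.5 and 27.1 RPKM (0.94, adjusted p = 0.10). Cish, a feedback inhibitor induced by Stat5, was at 0.4 and 0.7 against 1.7 and 1.8 RPKM (1.11, adjusted p = 0.244). Il2ra was at 9.9 and 13.1 against 5.8 and 3.3 RPKM (-1.28, adjusted p = 0.152). Stat5b was at 24.2 and 23.1 against 20.2 and 18.1 RPKM (-0.30, limma adjusted p = 0.385). Il7r was at 14.8 and 11.5 against 8.7 and 8.5 RPKM (-0.57, limma adjusted p = 0.390). Il2rg, Jak3, Cish, Il2ra, Stat5b and Il7r did not pass, and all were picked with their values known. The list median was 0.12.

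In the BAFF, CD40 and NF-kB list, which holds receptors and factors of B cell survival, none of 24 tested genes passed, 10 had both mutant libraries above wild type (41.7%, against 21.1% of tested genes) and 3 below (12.5%, against 20.3%). Nfkb2, the factor precursor processed on BAFF signals, was at 76.8 and 95.3 against 150.7 and 152.8 RPKM (log2 fold change 0.82, SE 0.15, adjusted p = 0.0977). Traf1, an adaptor gene that NF-kB induces, was at 4.6 and 3.6 against 9.7 and 8.8 RPKM (1.09, adjusted p = 0.173). Their receptor-side partner Tnfrsf13c, the BAFF receptor, was at 418.2 and 433.7 against 336.2 and 286.5 RPKM (-0.46, adjusted p = 0.301), picked with its values known. Replicate 1 alone was above both wild-type libraries for 16 of the 24, where 38.7% of tested genes were. The list median was 0.09, with 0.16 and 0.04 in replicates 1 and 2.

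Of the 33 tested B cell receptor genes, Inppl1 was called lower and none higher, against 0.174% and 0.0969% of all tested genes. Both mutant libraries were below wild type for 11 (33.3%, against 20.3% of tested genes) and above for 5 (15.2%, against 21.1%). The list median was -0.09, with -0.02 and -0.18 in ZnF1 replicates 1 and 2. Rasgrp3, which activates Ras behind the receptor, was at 34.7 and 31.2 against 55.9 and 52.2 RPKM (adjusted p = 0.140), and Blk, a Src kinase gene of B cells, at 211.3 and 226.9 against 166.4 and 150.6 RPKM (adjusted p = 0.255). Both were picked with their values known.

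Immediate early genes, which respond within minutes to receptor signals, had mostly lower values in the mutant. None of 24 tested passed, 10 had both mutant libraries below wild type (41.7%, against 20.3% of tested genes) and 2 above (8.33%, against 21.1%), and the median was -0.34. Egr1 was at 33.5 and 38.5 against 21.5 and 18.8 RPKM (log2 fold change -0.82, SE 0.14, adjusted p = 0.0819). Dusp5, a phosphatase gene that restrains ERK, was at 16.5 and 21.8 against 11.5 and 8.1 RPKM (adjusted p = 0.150). The median rested on wild-type replicate 1: without it the value was 0.07. Fos, picked with its values known, was at 97.5 and 26 RPKM in wild type and at 34.0 and 23.8 RPKM in the mutant (adjusted p = 0.614), so the wild-type libraries differed more than the groups.

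Plasma cell genes showed the same dependence on wild-type replicate 1. Of 15 tested, Sdc1 was called lower and none higher, against 0.174% and 0.0969% of all tested genes. Both mutant libraries were below wild type for 6 (40.0%, against 20.3% of tested genes). They were above for none, where 21.1% of tested genes were. The median was -0.40, but -0.004 without wild-type replicate 1 and -0.73 without replicate 2. Txndc11 and Derl3 were picked with their values known. Txndc11, a thioredoxin family gene of the endoplasmic reticulum, was at 43.0 and 40.6 against 26.5 and 25.1 RPKM (log2 fold change -0.69, adjusted p = 0.0752) with little spread within groups. Derl3, which removes misfolded proteins from that compartment, was at 22.7 and 11.5 against 6.3 and 4.3 RPKM (adjusted p = 0.118). In the abundant members Hspa5, Txndc5 and Pdia4 the groups overlapped, with log2 fold changes of -0.06, -0.21 and 0.18. Hspa5 was at 281.3 and 195.9 against 240.2 and 211.1 RPKM, and Pdia4 at 137.1 and 79.6 against 132.1 and 105.6 RPKM. Igj, the J chain gene, was at 413.8 RPKM in wild-type replicate 1 and at 1.1, 13.5 and 3.3 RPKM in wild-type replicate 2 and ZnF1 replicates 1 and 2 (adjusted p = 0.814).

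In the Bcl2 family, Bmf fell and the other 11 tested members did not pass, where 0.271% of all tested genes passed. Bcl2l1, the survival gene that encodes Bcl-xL, was at 12.8 and 17.8 against 6.4 and 10 RPKM (adjusted p = 0.212), and Bid, a BH3-only gene, at 23.3 and 21.4 against 28.6 and 30.2 RPKM (adjusted p = 0.334). Both were picked with their values known.

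Integrin and adhesion genes had 1 called member of 24, Sema7a, where 0.271% of all tested genes were called. Both mutant libraries were above wild type for 9 (37.5%, against 21.1% of tested genes) and below for 4 (16.7%, against 20.3%). Ctnnd1, the cadherin partner p120 catenin, was at 1.0 and 1.1 against 2.6 and 3.4 RPKM (log2 fold change 1.17, adjusted p = 0.0687). Ctnna1, alpha catenin, was at 16.2 and 14.6 against 9.6 and 11.4 RPKM (-0.53, adjusted p = 0.206). Itgb1, the beta 1 integrin, was at 17.0 and 14.9 against 18.0 and 22.8 RPKM (adjusted p = 0.473). These 3 did not pass and were picked with their values known. The list median was 0.19.

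Interferon response genes had a median of 0.25; of 30 tested none passed, 10 had both mutant libraries above wild type (33.3%, against 21.1% of tested genes) and 0 below, where 20.3% of tested genes were. Irf7, the factor that amplifies the response, was at 20.4 and 27.4 against 45.1 and 33.8 RPKM (log2 fold change 0.71, adjusted p = 0.215). Ifitm3, which blocks virus entry, was at 3.0 and 5.5 against 10.1 and 38.3 RPKM (adjusted p = 0.204); the excess in replicate 2 went with its granulocyte markers, and the link was not tested. Wild-type replicates 1 and 2 had list medians of -0.33 and 0.33, so they lay further apart than the shift of 0.25. Without wild-type replicate 1 the median was -0.04.

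Of 26 Notch pathway genes, 22 were tested and none passed; 7 had both mutant libraries below wild type (31.8%, against 20.3% of tested genes) and 2 above (9.09%, against 21.1%), with a median of -0.04. Maml3, a Notch coactivator gene, was at 3.5 and 2.9 against 1.2 and 1.8 RPKM (adjusted p = 0.199), and Dtx1, a Notch target, at 22.6 and 22.5 against 18.3 and 13.8 RPKM (adjusted p = 0.311). In the marginal zone and B1 list none of 13 passed; S1pr3, a sphingosine phosphate receptor gene, was at 4.4 and 4.8 against 1.4 and 2.5 RPKM (adjusted p = 0.171), and Cd36, a scavenger receptor gene, at 16.2 and 19.4 against 35.8 and 23.9 RPKM (adjusted p = 0.280).

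Genes of the NuRD complex and related corepressors, the machinery through which Ikaros can silence genes, had log2 fold changes between -0.48 and 0.27. None of 17 tested passed, and their median was 0.05 (-0.05 without ZnF1 replicate 1). Both mutant libraries were above wild type for 5 (29.4%, against 21.1% of tested genes) and below for 2 (11.8%, against 20.3%), and replicate 1 alone was above for 13, where 38.7% of tested genes were. Smarca4, a remodelling ATPase gene, was at 72.2 and 86.4 against 59.9 and 53.4 RPKM (log2 fold change -0.48, adjusted p = 0.242), and Mta1, a NuRD subunit gene, at 17.2 and 18.7 against 21.2 RPKM in both mutant libraries (adjusted p = 0.551).

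In 7 further lists the medians were small, and Cyp27a1 was the one called member. Glucose uptake and glycolysis genes had a median of 0.26 (0.19 and 0.32 in ZnF1 replicates 1 and 2), with 6 of 17 above wild type in both mutant libraries (35.3%, against 21.1% of tested genes) and 1 below (5.88%, against 20.3%). Ldha, lactate dehydrogenase A, was at 23.9 and 20.9 against 29.3 and 38.2 RPKM (adjusted p = 0.358). Cell cycle and replication genes had a median of 0.16 over 27 genes, with 0.00 in replicate 1 and 0.36 in replicate 2, and Ccne1, cyclin E1, was at 7.1 and 7.4 against 9.2 and 11.1 RPKM (adjusted p = 0.309). The 9 tested G1 cyclins and Cdk inhibitors had a median of -0.07, with 1 above wild type in both mutant libraries (11.1%) and 2 below (22.2%). Cdk2 was at 30.4 and 32.5 against 39.3 and 48.6 RPKM (adjusted p = 0.240). Cdkn1b was at 49.9 and 48.2 against 42.2 and 33.7 RPKM (limma adjusted p = 0.353). Over the 18 MHC class II presentation genes the median was 0.07, with 4 above wild type in both mutant libraries (22.2%) and 3 below (16.7%). H2-DMb1, a peptide-loading chaperone chain, was at 41.9 and 32 against 59.2 and 58.8 RPKM (adjusted p = 0.209). Lgmn was at 69.5 and 63.9 against 54.5 and 39.2 RPKM (limma adjusted p = 0.358). The 17 Toll-like receptor genes had a median of 0.07, with 5 above wild type in both mutant libraries (29.4%) and 5 below (29.4%). Tlr2 was at 7.6 and 7.4 against 12.2 and 15.4 RPKM (adjusted p = 0.10). The 12 homing and egress receptors had a median of 0.13, and 1 of them had both mutant libraries above (8.33%, against 21.1% of tested genes) and 2 below wild type (16.7%, against 20.3%). The sterol genes had a median of 0.03. Apart from glycolysis, the median of each of these 7 lists had the opposite sign when 1 of the 4 libraries was left out, with values between -0.13 and 0.08.

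**Figure D5:**
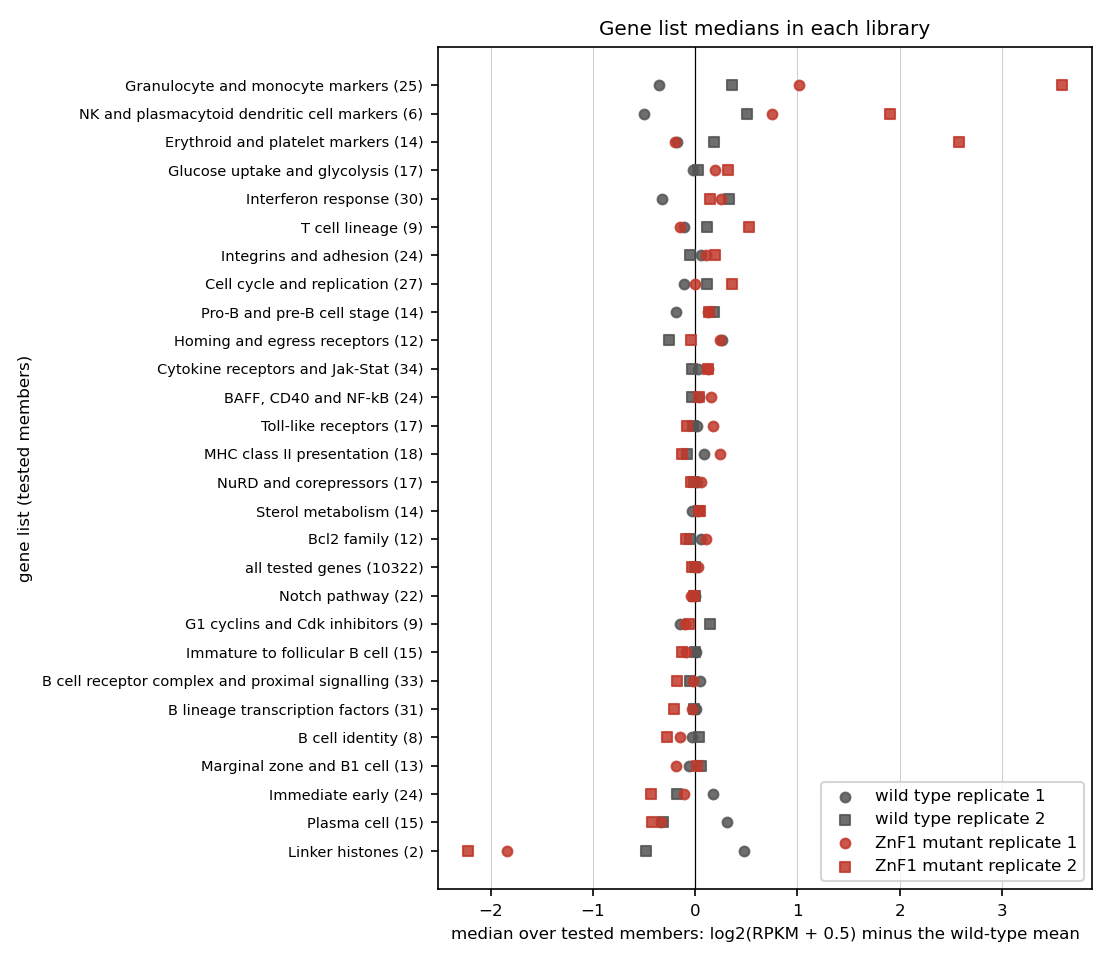
Median over the tested members of each list, per library, of log2(RPKM + 0.5) minus the wild-type mean; the number of tested members is in brackets, grey is wild type, red the ZnF1 mutant, circles replicate 1 and squares replicate 2. Most lists lie within 0.5 of zero, the granulocyte, erythroid and NK lists are displaced most in ZnF1 replicate 2, and the linker histone list holds 2 genes.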

How the data were processed

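The authors deposited 1 table of RPKM for 26531 RefSeq transcripts; the submitters' processing notes list TopHat, bedtools and build mm9, with versions and settings not given in the sources used here. Transcript length (an other-unit column per the file headers) was used only for an alternative. RPKM are rounded to 0.1. Of 22098 gene names, 3305 had several transcripts, and the one with the highest mean RPKM over the 6 libraries was kept. Genes with a mean of at least 1 RPKM over the same 6 libraries (10322) were fitted on log2(RPKM + 0.5) with limma 3.58.1 in R 4.3.3. The fit had 1 coefficient per genotype over all 6 libraries, which leaves 3 residual degrees of freedom. Then eBayes was run with an intensity trend, two-sided, adjusted by the Benjamini-Hochberg method. Libraries were not scaled further. The fit was tested on simulated data.

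Lists (27, with 534 distinct genes of which 531 are in the table) are described by counts and medians. Genes named are Ikzf1 and every called gene. Others were drawn from the members of each list with the smallest p and the most abundant markers of other cells. The genes with the largest distance between groups or between the ZnF1 libraries were also drawn on. Not all of these are named. Any further genes are marked as picked with their values known, that is, after the values were seen. Members and lists were chosen with earlier results of these data known. Some items are not reported here. Alternatives, 17 in all, changed the pseudocount, filter, scaling, libraries, trend, weights, transcript choice and covariates.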

Additional observations from a re-analysis of the deposited data

How the results depend on the processing

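By limma, the 28 calls became 0 without a filter on low values (1596 genes at an unadjusted p under 0.05), 0 with only the 4 libraries of the 2 genotypes (1053) and 0 with a term for sex (863), and 13 with quantile normalization, all among the 28. The first of these tests 14585 genes, the second has fewer samples for the spread; why the others changed was not tested. Leaving out 1 library gave between 0 and 512 calls. The count was 27 with a pseudocount of 0.1, 28 with 1, 27 with a filter at 3 RPKM, 30 without the intensity trend, 32 with array quality weights and 20 with the longest transcript.

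The libraries share replicate numbers, and with the replicate block 27 genes were called, 21 of them among the 28. Deviations from the group mean correlated between same-numbered wild-type and ZnF1 libraries with r = 0.28 across genes; with 2 pairs this does not show that the numbers pair the samples. All 28 genes kept their direction under every alternative that tested them, and each was called in 4 to 10 of them. For most alternatives the kept direction was fixed in advance, because the groups of these genes do not overlap. Depth per library is unknown, so how firmly weak genes are measured cannot be stated. Counts for ZnF1 replicate 1 alone were added after the data were seen.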

Other observations

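A further 53 genes had both mutant libraries at least 1 above or below both wild-type libraries on the log2 scale and were not called; 0.736% of tested genes were that far apart. Of these, 32 were higher. In 19 of the 32, ZnF1 replicate 2 was over 1 above replicate 1, and 6 are on the granulocyte list. They included Mcpt8, a protease gene of basophils, at 0.8 and 1.1 RPKM in wild type and 5.3 and 37.3 RPKM in the mutant (adjusted p = 0.150). Others were alike in the mutant libraries: Avpi1 was at 0.6 and 0.2 against 2.6 and 2.5 RPKM, Ehd3, an endosome recycling gene, at 3.1 and 3.4 against 9.3 and 8.1 RPKM, and Chst10, a sulphotransferase gene, at 6.2 and 3.8 against 18.0 and 14.2 RPKM.

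The other 21 were lower, and in 2 of them the mutant libraries were over 1 apart. Mtap2, a microtubule protein gene, was at 1.8 and 4.4 RPKM in wild type and at 0.1 RPKM and listed at 0 in the mutant (adjusted p = 0.053). Bhlha15, a secretory cell factor gene, was at 6.8 and 4.6 against 1.7 and 1.2 RPKM. Wls, which carries Wnt proteins to the surface, was at 9.2 and 10.1 against 1.2 and 3.3 RPKM. Apart from Mcpt8 and Mtap2, the genes in these paragraphs were chosen after their values were seen.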
